A study of Mus musculus with 4 samples.

Results

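The neuregulin and ErbB genes examined here were the ligand genes Nrg1, Nrg2 and Nrg3 and the receptor genes Erbb2, Erbb3, Erbb4 and Egfr, chosen by symbol as 7 of the 32285 features counted. They were read in 13739 single cells, out of 15863 deposited barcodes, in whole embryonic mouse noses taken on day 14.5 of gestation. Cells were kept where 500 genes or more were detected and mitochondrial genes gave no more than 10% of the UMIs, where UMIs are the molecular tags by which captured transcripts are counted once each. Levels (CPM) are the UMIs of a gene per 1000000 UMIs of the summed cells, taken library by library.

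Neuregulins are growth factors of the EGF family, made mostly as membrane-bound precursors that proteases release. They bind ErbB3 or ErbB4 on the receiving cell. ErbB3 has little kinase activity of its own and ErbB2 binds no known ligand, so the pair of them forms a working receptor, whereas ErbB4 and EGFR can also act as pairs of like receptors. Neuregulin 1 on axons is the classical survival and migration signal for Schwann cell precursors, the crest-derived glia that follow nerves. In the nose such glia also include the olfactory ensheathing cells. EGFR receives EGF-type ligands in epidermis.

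The 4 libraries fall into 2 controls and 2 libraries labelled mutant. The labels give the controls as the strain C57Bl/6J, whereas the series design gives them as yap flox/flox;taz flox/flox without Cre, and this difference was not settled. By the design the mutants carry Sox10cre with yap flox/WT and taz flox/flox, and by the labels the transgene is Tg(Sox10-cre)1Wdr on C57Bl/6J. Sox10 is active in migrating neural crest and in its glia, so both Taz alleles and 1 of the 2 Yap alleles can be recombined where that Cre has been active. Yap and Taz are coactivators that act on genes through TEAD transcription factors. The protocols speak of 2 noses of each genotype without tying a nose to a library, of dissociation with papain and collagenase and of freezing, and of 2 sequencing providers, with no library assigned to one. Provider and genotype therefore cannot be told apart, and the p-values below measure only the spread between these libraries. A further sample of which the protocols speak was not analysed here.

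Kept cells numbered 2474 to 4195 per library, with 19767873 to 35331450 UMIs. Their median depth was 5282 to 8549 UMIs. Pairs of libraries shared 4 to 8 barcodes. Yap1, over all kept cells, was at 65 and 65.2 CPM in control and 56.4 and 56 CPM in mutant-labelled libraries. Wwtr1, which encodes Taz, was at 118 and 145 CPM in control and 123 and 132 CPM in mutant-labelled libraries. In the glia defined below, Wwtr1 was at 225 and 188 CPM in control and 241 and 330.1 CPM in mutant-labelled libraries, so it was not lower there. The reads come from the 3-prime end of transcripts, and the floxed exons are not given in the sources used here, so these levels do not check the deletion.

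Cells were placed in 12 classes by markers that include none of the 7 genes. A cell entered a class with at least 3 of its 8 markers detected and more than of any other class outside mesenchyme. All classes but bone, cartilage and mural cells also needed more of their own than of the mesenchyme markers, and a cell with at least 3 mesenchyme markers and no other class was mesenchyme. Mesenchyme held 9286 cells, epithelium 1188, glia 119 and neurons 100. Ungated cells made up 5.79 to 7.27% of a library. Glia numbered 41 and 26 in the controls and 32 and 20 in the mutant-labelled libraries, and neurons 40, 11, 26 and 23 in the same order. All 8 glial markers, Sox10 among them, were detected in the glia of every library, at a summed 5963 to 16362 CPM, beside 288 to 764 CPM for the mesenchyme list and 167 to 812 CPM for the neuron list. The neuron gate also carried the epithelium list at 254 to 1849 CPM, lowest in control 2, and 32, 6, 24 and 19 of its cells held markers of olfactory neurons. The class names stand for these gates.

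On GRCm38 the genes Nrg1 and Nrg3 are long: Nrg1 lies on chromosome 8, 31814551 to 32884029, and Nrg3 on chromosome 14, 38368952 to 39473088. Erbb4 (on chromosome 1, 68032186 to 69108059) is likewise over a megabase, whereas Erbb3 (chromosome 10, 128567523 to 128589652) and Erbb2 (chromosome 11, 98412470 to 98437716) are compact and Egfr (chromosome 11, 16752203 to 16918158) lies between. Whether reads from introns or from the opposite strand were counted is not given in the sources used here. Antisense genes overlap Nrg2, Nrg3 and Egfr, the coding gene Mien1 overlaps Erbb2 on the other strand, and Gm16076 lies within Erbb4 on the same strand. Whether counts of these members include reads of those neighbours was not tested.

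The RefSeq promoter table of GRCm38.p6 matched 4 of the 7 genes, and those of 3 receptor genes are shown, because Yap and Taz, the genes targeted here, act through TEAD sites and the receptors are compared between genotypes below. Each run is the 250 bases before the RefSeq start, 5′ to 3′ on the gene's strand, and capitals mark a TEAD core, searched as GGAATG and its reverse complement CATTCC. They lie at chr11:98412234-98412483, plus strand, at chr11:16751953-16752202, plus strand, and at chr1:69108060-69108309, minus strand.
Erbb2: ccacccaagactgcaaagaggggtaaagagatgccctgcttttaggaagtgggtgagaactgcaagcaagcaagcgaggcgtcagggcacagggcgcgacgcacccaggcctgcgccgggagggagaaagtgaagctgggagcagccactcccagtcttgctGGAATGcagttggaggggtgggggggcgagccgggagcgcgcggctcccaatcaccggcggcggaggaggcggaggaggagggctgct
Egfr: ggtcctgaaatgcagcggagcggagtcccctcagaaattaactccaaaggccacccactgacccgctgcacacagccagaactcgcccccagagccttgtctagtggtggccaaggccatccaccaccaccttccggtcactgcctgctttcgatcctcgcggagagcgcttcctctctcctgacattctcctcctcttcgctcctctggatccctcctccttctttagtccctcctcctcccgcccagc
Erbb4: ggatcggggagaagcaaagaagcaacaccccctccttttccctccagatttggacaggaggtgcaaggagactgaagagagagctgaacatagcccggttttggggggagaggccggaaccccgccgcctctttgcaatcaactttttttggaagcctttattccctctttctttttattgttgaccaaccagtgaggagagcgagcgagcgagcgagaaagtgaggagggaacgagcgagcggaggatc
The Erbb2 window held 1 match and the Egfr, Erbb4 and Nrg3 windows none. Such a match was present in 12.6% of 32851 promoter windows of that length, so 1 match is a description of the letters and marks no binding site.

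Nrg1 was chiefly a mesenchymal and neuronal transcript. In mesenchyme it was at 153 and 129.6 CPM in control and 271 and 198 CPM in mutant-labelled libraries. The 2 mutant-labelled values lay above both controls. The share of all genes whose groups of 2 libraries lie apart was not counted, here or below. Such an order is therefore a description only. Mesenchyme held 78.4 to 88.3% of the Nrg1 UMIs of a library and 51.5 to 64.1% of all UMIs, so the ligand was concentrated there. A UMI of Nrg1 was seen in 21.7 to 30.2% of mesenchymal cells at a median of 4903.5 to 8110 UMIs. In macrophages, which serve as a gauge of free RNA, it was seen in 3.51 to 9.09% of cells at a median of 7566 to 10314 UMIs, and at 3.54 to 19.7 CPM.

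Neurons were at 283 and 68.5 CPM in control and 487 and 286 CPM in mutant-labelled libraries, with control 2, the library with 11 neurons, far below the other libraries. The cell with the most Nrg1 UMIs held 20.7 to 72.4% of the neuronal Nrg1 UMIs of its library. The difference of mesenchyme from neurons was -0.47 ± 0.22 (log2 ± SE, 4 libraries, library as a block), with an edgeR adjusted p of 0.0957. Neurons were higher with adjusted p-values of 0.04 with DESeq2's size factors in edgeR, 0.028 with a gate of 4 markers, 0.044 with doublets removed and 0.014 without control 2, while the gate as first written turned the difference to 0.23. Their order thus changed with the processing. Of all genes tested 48.1% passed for mesenchyme against neurons, 57.7% for mesenchyme against epithelium, 25.2% for mesenchyme against glia, 39.2% for neurons against epithelium, 30.2% for glia against epithelium and 36% for glia against neurons. Epithelium was lower, at 26.8 to 44.9 CPM. Mesenchyme exceeded epithelium by 2.31 ± 0.21 and neurons did so by 2.78 ± 0.25 on the log2 scale, with edgeR adjusted p-values of 1.38e-08 and 5.11e-08.

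Glia held 3 UMIs of Nrg1 in all, from 2 cells of control 1, out of 1142868 UMIs. The pooled level in mesenchyme was 73 times that of glia, with a 95% interval of 25 to 354 that covers counting error only, as do all intervals given for counts and shares. Bone (27.9 to 57.4 CPM), mural cells (23.4 to 82.3 CPM) and cartilage (11.1 to 56.1 CPM) lay near epithelium. Muscle, endothelium and macrophages stayed below 20 CPM in every library. Thus the glial class that carries the neuregulin receptor, described below, was itself nearly free of Nrg1 transcript.

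**Figure D1:**
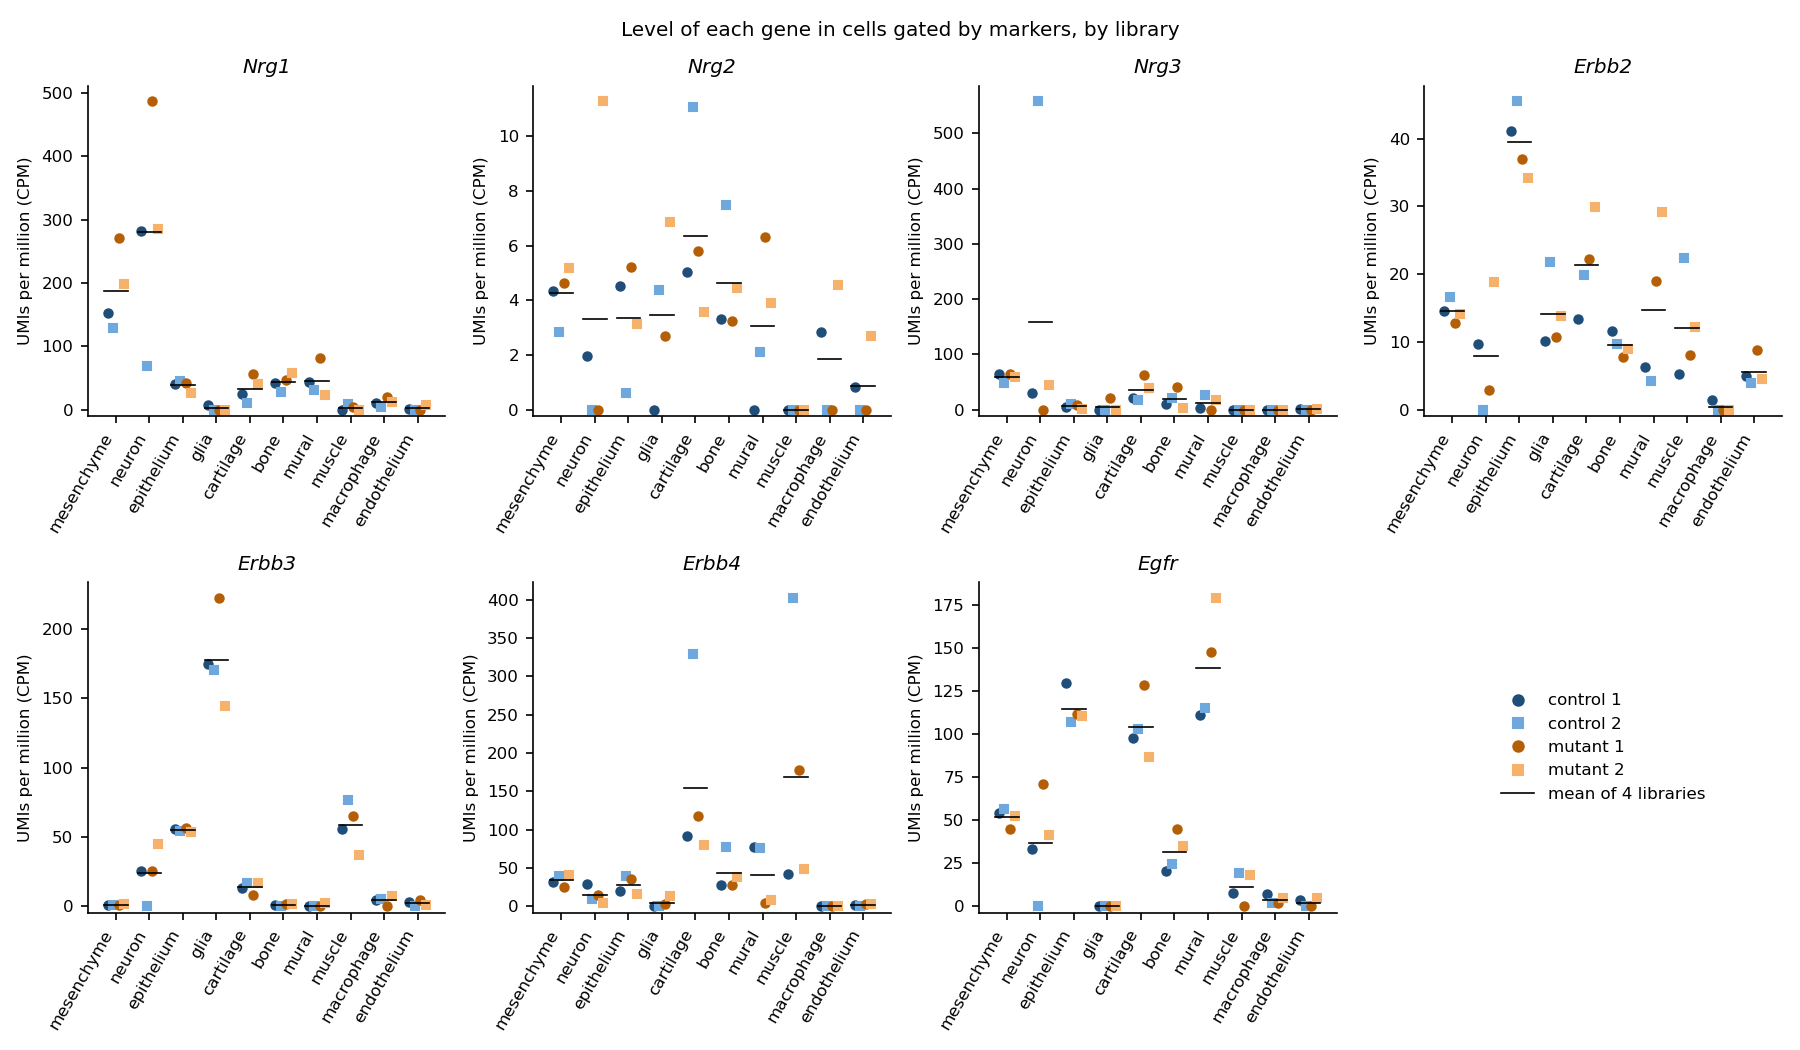
Level in CPM (vertical axes, a linear scale per gene) of the 7 genes in 10 classes of gated cells (horizontal axes), 1 point per library and a bar at the mean of the 4 libraries. Nrg1 is highest in mesenchyme and neurons, Erbb3 in glia at 144 to 222 CPM, and Egfr is at 0 in the glia of all 4 libraries.

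Mesenchymal cells were not uniform in Nrg1. Subsets were taken by detection of regional transcription factors and other genes, and a cell can be in more than 1. Cells with Foxl2 or Agtr2 were at 235 and 201 CPM in control and 487 and 263 CPM in mutant-labelled libraries. Cells with Osr1 were at 201 and 203 CPM in control and 393 and 279 CPM in mutant-labelled libraries. At the other end, cells with Itgbl1, Crym or Cldn11 were at 70.4 and 34 CPM in control and 115 and 119.7 CPM in mutant-labelled libraries. The first 2 subsets therefore exceeded the last in each library.

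Against the other mesenchymal cells of the same library, Nrg1 was higher in cells with Foxl2 or Agtr2 by 0.89 ± 0.07 on the log2 scale (edgeR adjusted p = 5.63e-06). It was higher by 0.95 ± 0.08 in cells with Osr1 and by 0.58 ± 0.06 in cells with the palatal and nasal factors Pax9 or Osr2, with edgeR adjusted p-values of 4.29e-06 and 6.41e-05. In cells with Shox2 it was higher by 0.47 ± 0.10 (edgeR adjusted p = 0.0141), a call that was lost with DESeq2, at 0.38, with a gate of 2 markers, at 0.25, and without mutant 1 or mutant 2, at 0.09 and 0.15. It was lower in cells with Pou3f4, at -0.69 ± 0.10, and, at -1.35 ± 0.14, in cells with Itgbl1, Crym or Cldn11, with edgeR adjusted p-values of 1.03e-05 and 6.44e-05. Of all genes tested, 9.62% were called for the Osr1 subset, 14.5% for Foxl2 or Agtr2, 8.71% for Pax9 or Osr2, 5.41% for Shox2, 21.3% for Pou3f4 and 15.1% for Itgbl1, Crym or Cldn11.

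Nrg3, a ligand of ErbB4 best known from the nervous system, was also mostly mesenchymal. It was at 64.9 and 47.4 CPM in control and 64.4 and 59 CPM in mutant-labelled libraries in that class, which held 76.2 to 89.3% of its UMIs. Mesenchyme exceeded epithelium by 3.42 ± 0.57 on the log2 scale (edgeR adjusted p = 3.83e-05), and macrophages held no Nrg3 UMI in 252 cells. Neurons ran from 0 to 558 CPM, the highest value coming from 4 of the 11 neurons of control 2. In that library 3 olfactory progenitor cells held 45 of the 57 neuronal Nrg3 UMIs.

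Within mesenchyme Nrg3 was highest in cells with Shox2 in 3 of 4 libraries, mutant 2 being slightly higher in cells with Pou3f4. Cells with Shox2 were at 105 and 105 CPM in control and 104 and 81 CPM in mutant-labelled libraries, a difference of 1.14 ± 0.13 from the other cells (log2 ± SE, edgeR adjusted p = 1.40e-04). It was higher in cells with Pax9 or Osr2 by 0.71 ± 0.13 and in cells with Foxl2 or Agtr2 by 0.56 ± 0.15, with edgeR adjusted p-values of 0.00393 and 0.023. Both of these calls were lost with DESeq2, at 0.058 and 0.42. The call for Foxl2 or Agtr2 was also lost with 1 library left out (edgeR adjusted p up to 0.117). In cells with Osr1, where Nrg1 was high, Nrg3 was lower, at -0.32 ± 0.07 on the log2 scale (edgeR adjusted p = 0.00951). That call was lost with DESeq2, at 0.12, and with 1 library left out (edgeR adjusted p up to 0.097). A UMI of both ligands was seen in 304 of 9286 mesenchymal cells, against 2005 with Nrg1 alone and 556 with Nrg3 alone. That is more cells with both than independent detection of each gene would give. Detection depends on depth, so neither joint nor separate expression is read from these counts. Nrg2 was low everywhere, at 3.24 to 4.57 CPM over all cells and 2.84 to 5.19 CPM in mesenchyme, and it was not tested between classes because its counts were too low.

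**Figure D2:**
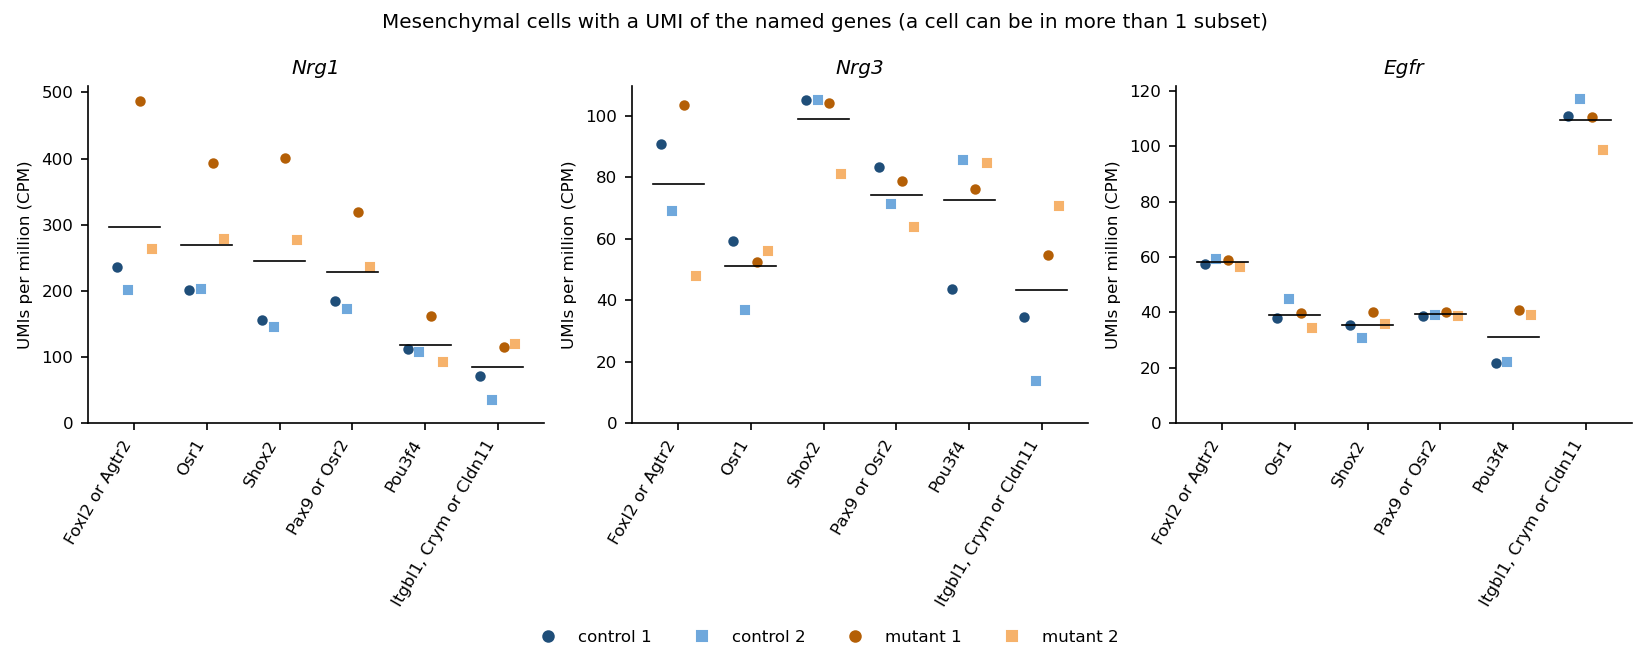
Level in CPM (vertical axes) of Nrg1, Nrg3 and Egfr in 6 overlapping subsets of mesenchyme (horizontal axes), 1 point per library with a line at the mean of the 4. By the mean, Nrg1 is lowest and Egfr highest in cells with Itgbl1, Crym or Cldn11, where Egfr is at 98.7 to 117 CPM.

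Erbb3, the receptor that binds neuregulins and needs a partner to signal, was highest in glia among the 4 main classes. Glia were at 175 and 170.3 CPM in control and 222 and 144 CPM in mutant-labelled libraries. The mutant-labelled values lay on either side of the controls. A UMI of Erbb3 was seen in 69.2 to 93.8% of glia at a median of 6730.5 to 10701 UMIs and in 0 to 3.61% of macrophages. With each cell thinned to 2000 UMIs the shares were 19.5 to 37.5% in glia and 0 in the macrophages of every library.

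Epithelium was lower and nearly even, 53.9 to 56 CPM over the 4 libraries, and as a large class it held 44.8 to 62% of the Erbb3 UMIs of a library against 6.33 to 19.4% for glia. Glia exceeded epithelium by 1.74 ± 0.19 on the log2 scale (edgeR adjusted p = 6.65e-07). Muscle, with 9 to 22 cells a library, lay at 36.8 to 76.6 CPM, which overlaps epithelium. Melanocytes, another crest derivative that uses ErbB3, ranged over glial values and below, from 43.7 to 324 CPM in 3 to 9 cells. Cartilage was at 7.74 to 17.1 CPM and neurons at 0 to 45.1 CPM. In mesenchyme, the main source of Nrg1, Erbb3 was at 0.515 to 1.25 CPM, with 28 of 9286 cells holding a UMI. Against the mean of the other 3 main classes Erbb3 was 4.20 ± 0.21 in glia, 1.88 ± 0.16 in epithelium and -6.37 ± 0.30 in mesenchyme (log2 ± SE, edgeR adjusted p-values 1.08e-11, 2.19e-08 and 1.65e-12).

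Erbb2, the ligandless partner, was detected in all 4 main classes and was highest in epithelium. Epithelium was at 41.1 and 45.5 CPM in control and 37 and 34.2 CPM in mutant-labelled libraries. Both mutant-labelled values lay below both controls. Glia were at 10.1 and 21.8 CPM in control and 10.7 and 13.8 CPM in mutant-labelled libraries, on 2 to 5 UMIs a library, and mesenchyme at 12.7 to 16.6 CPM. Cartilage was at 13.4 to 29.9 CPM and bone at 7.79 to 11.6 CPM, while macrophages held 1 UMI in all.

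Epithelium exceeded the mean of the other 3 main classes by 1.77 ± 0.18 on the log2 scale (edgeR adjusted p = 1.91e-07). Glia, where ErbB2 and ErbB3 would form the neuregulin receptor, were -1.57 ± 0.33 from epithelium (edgeR adjusted p = 9.32e-04). Glia and mesenchyme could not be placed in order: mesenchyme minus glia was 0.14 ± 0.37 with an edgeR adjusted p of 0.829. Neurons were -1.30 ± 0.40 from the mean of the other 3 (edgeR adjusted p = 0.014), with no Erbb2 UMI in the neurons of control 2. Without control 1 or mutant 1 this call was lost, at 0.072 and 0.1.

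Egfr, the receptor for EGF-type ligands, had its highest levels in epithelium, mural cells and cartilage. Mesenchyme, as the largest class, held 42.5 to 64.2% of the Egfr UMIs of a library, against 15.8 to 34.7% for epithelium. Epithelium was at 129.7 and 107 CPM in control and 112 and 110.3 CPM in mutant-labelled libraries, with overlapping groups. Mural cells were at 111 to 179 CPM and cartilage at 86.8 to 129 CPM, ranges that overlap that of epithelium. Mesenchyme was lower, at 45.1 to 56.5 CPM, and its difference from epithelium was -1.13 ± 0.15 on the log2 scale (edgeR adjusted p = 8.26e-06). Bone was at 20.6 to 44.8 CPM and neurons were at 0 to 71.2 CPM.

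Glia held no Egfr UMI in any library: 0 of 119 cells, 0 of 1142868 UMIs. Taking 3 UMIs over the 4 libraries as the limit that a count of 0 allows, glia stood at no more than 2.62 CPM. That is at least 19.7-fold lower than the pooled level of mesenchyme and at least 44.9-fold lower than that of epithelium. In macrophages, by comparison, 1.75 to 5.88% of cells held an Egfr UMI.

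The regional pattern of Egfr in mesenchyme ran against that of Nrg1. Cells with Itgbl1, Crym or Cldn11 were at 111 and 117 CPM in control and 111 and 98.7 CPM in mutant-labelled libraries, 1.36 ± 0.08 above the other cells (log2 ± SE, edgeR adjusted p = 1.44e-06). Egfr was lower in cells with Osr1 (-0.58 ± 0.08), Shox2 (-0.70 ± 0.10) and Pax9 or Osr2 (-0.70 ± 0.08), with edgeR adjusted p-values of 2.46e-04, 9.45e-04 and 1.90e-04. The 2 genes were not opposed throughout. In cells with Pou3f4 both were low, Egfr at -0.61 ± 0.16 (edgeR adjusted p = 0.0082, lost without control 1 at 0.11 and with a gate of 2 markers at 0.5), and in cells with Foxl2 or Agtr2 Egfr differed by 0.22 ± 0.07, which did not pass (edgeR adjusted p = 0.0688).

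Erbb4, which binds neuregulins and can pair with itself, was highest in cartilage and muscle and varied widely. Cartilage was at 91 and 329 CPM in control and 118 and 79.7 CPM in mutant-labelled libraries, control 2 standing apart. Muscle was at 42.2 and 402 CPM in control and 178 and 49.1 CPM in mutant-labelled libraries, on 9 to 22 cells a library, and 1 cell held 37.5 to 62.5% of the UMIs of its library. Mesenchyme was at 24.7 to 41.1 CPM and epithelium at 16 to 40.0 CPM. Their difference of 0.36 ± 0.22 did not pass (edgeR adjusted p = 0.18). Glia held 3 UMIs, all in the mutant-labelled libraries, and the pooled level in mesenchyme was 12.8 times theirs, with an interval of 4.36 to 61.9. Macrophages held none. Within mesenchyme Erbb4 was lower in cells with Osr1 (-0.81 ± 0.11) and with Pax9 or Osr2 (-0.50 ± 0.08) and higher in cells with Shox2 (0.35 ± 0.07), with edgeR adjusted p-values of 2.88e-04, 0.00132 and 0.0109. The Shox2 call was lost with DESeq2 (0.22) and with 1 library left out (edgeR adjusted p up to 0.0525). Its adjusted p over all alternatives reached 0.607. The Pax9 or Osr2 call was lost with a gate of 2 markers (0.17). Erbb2 was higher in cells with Osr1 by 0.49 ± 0.12 (edgeR adjusted p = 0.0164). That call was lost with DESeq2, at 0.31, and with 1 library left out (edgeR adjusted p up to 0.113).

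**Figure D3:**
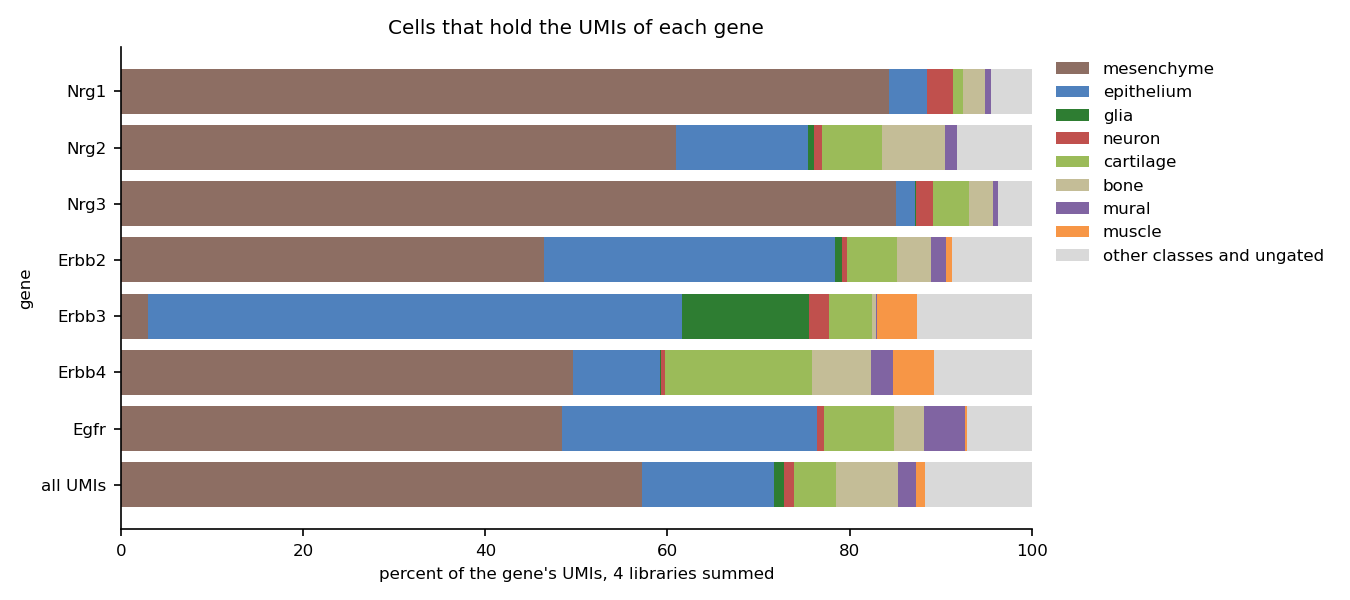
Percent of the UMIs of each gene (horizontal axis) that lay in each class of cells, 4 libraries summed, with all UMIs of all genes as the last bar. Mesenchyme holds 78.4 to 88.3% of the Nrg1 UMIs and 1.80 to 5.72% of the Erbb3 UMIs of a library.

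Against the mean of the other 3 main classes, the share of all genes tested that passed with edgeR was 44.1% in mesenchyme, 24.4% in glia, 40.5% in neurons and 41.7% in epithelium. Passing was thus common, and the sizes and orders above carry the description. Fitted log2 differences that rest on the near absence of Egfr, Nrg1 and Erbb4 in glia are not given, and ratios or limits of pooled levels stand in their place. The sizes given for Erbb3 in glia and epithelium against the mean of the other 3 classes rest in part on its near absence in mesenchyme.

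The receptors were spread unevenly inside the epithelium. Basal keratinocytes, defined by at least 2 of Krt5, Krt14, Krt15 and Trp63, numbered 57 to 170 a library, and their Egfr was at 183 and 137 CPM in control and 161 and 163 CPM in mutant-labelled libraries. Suprabasal keratinocytes, with at least 2 of Krt1, Krt10, Krtdap and Sbsn, were at 87.8 to 123 CPM of Egfr on 16 to 43 cells. The order was the other way for Erbb2 and Erbb3. Erbb2 was at 25.3 to 38.4 CPM in basal and 75.3 to 96.2 CPM in suprabasal cells. Erbb3 was at 38.2 to 47.2 CPM in basal and 73.3 to 115 CPM in suprabasal cells. For all 3 genes the 2 ranges do not overlap.

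Tested against the other epithelial cells, basal keratinocytes were higher in Egfr by 1.19 ± 0.09 and in Nrg1 by 1.50 ± 0.25, and lower in Erbb3, at -0.58 ± 0.12 (log2 ± SE, edgeR adjusted p-values 3.05e-06, 7.97e-04 and 0.00358). Erbb2 was lower, at -0.47 ± 0.13, and Erbb4 higher by 1.44 ± 0.48, with edgeR adjusted p-values of 0.0158 and 0.0452. These last 2 calls were lost with DESeq2, at 0.19 and 0.09, and without control 1, mutant 1 or mutant 2, at 0.062, 0.067 and 0.068 for Erbb2 and 0.21, 0.31 and 0.18 for Erbb4. With a gate of 4 markers the Erbb2 call was lost too, at 0.092. So 5 of 7 members passed, where 28.2% of all genes did. Suprabasal cells held 4 Nrg1 UMIs in all, from control 1.

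**Figure D4:**
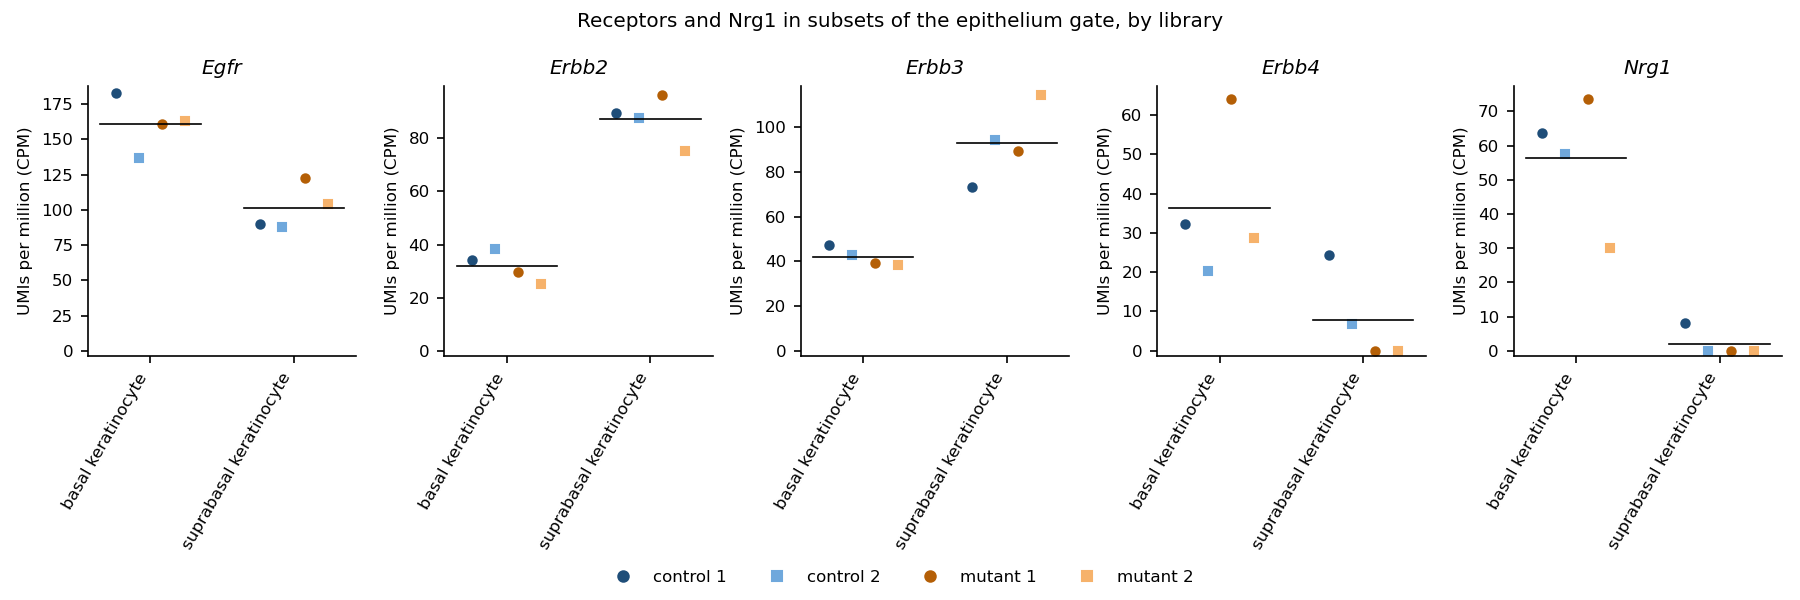
Level in CPM (vertical axes) of 4 receptor genes and Nrg1 in 2 subsets of the epithelium gate (horizontal axes), 1 point per library with a line at the mean of the 4. Basal keratinocytes have the higher Egfr, 137 to 183 CPM, while Erbb2 and Erbb3 are higher in suprabasal cells.

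Whether partners were detected in the same cell depends on depth, doublets were kept and free RNA was not removed, so these shares are descriptions of detection. Of 119 glia, 96 held an Erbb3 UMI, 14 an Erbb2 UMI and 10 both, 8.40% of glia (exact 95% interval 4.10 to 14.9%). Detection of each gene independently of the other would give 9.49%. With each cell thinned to 2000 UMIs 0 of 119 glia held both. In epithelium 230 of 1188 cells held both, 19.4% (17.1 to 21.7%), and 334 held Egfr with Erbb3, 28.1% (25.6 to 30.8%). Mesenchyme, by contrast, held Egfr with Erbb2 in 184 of 9286 cells, 1.98%, and Erbb2 with Erbb3 in 2. Both Erbb3 and Erbb4 were detected in 15 of 62 muscle cells, 24.2% (14.2 to 36.7%), in 46 of 1188 epithelial cells, 3.87% (2.85 to 5.13%), and in 3 glia. Cells of 1 library are not replicates, and these pooled shares carry no test.

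Between genotypes, Nrg1 was higher in both mutant-labelled libraries in mesenchyme, and the difference did not pass the test across all genes. The mutant-labelled libraries exceeded the controls by 0.70 ± 0.17 on the log2 scale, with an unadjusted p of 0.00353 and an edgeR adjusted p of 0.427. Adjusted values over the alternatives ran from 1.01e-06 to 0.999. DESeq2, which called 56 of 24720 genes, called it at 0.00508. So did edgeR without the filter on low counts, at 1.01e-06, in a fit that called 605 of 24720 genes. The log2 difference was 0.44 without mutant 1 and 0.91 without mutant 2.

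The share of mesenchymal cells with an Nrg1 UMI was 24.4 and 21.7% in the controls and 30.2 and 23.5% in the mutant-labelled libraries, groups that overlap. At 2000 UMIs a cell the shares were 15 and 12.1% against 19.3 and 15.8%, which do not overlap. No single cell held more than 3.59% of the mesenchymal Nrg1 UMIs of a library. Egfr (-0.22 ± 0.10) and Erbb2 (-0.25 ± 0.14) also had groups that did not overlap, with both mutant-labelled values lower, and neither passed (edgeR adjusted p = 0.656 and 0.695). The groups of Nrg2 (0.39 ± 0.26), a gene of low counts, did not overlap either. Both of its mutant-labelled values were higher, and it did not pass (edgeR adjusted p = 0.735). How many of all genes in mesenchyme separate in this way was not counted, so these orders carry no test. Of all genes tested in mesenchyme 0% were called by edgeR, 1251 of 15821 had an unadjusted p under 0.05, and DESeq2 called 56. Over all kept cells Nrg1 was at 100.5 and 94 CPM in control and 188 and 133 CPM in mutant-labelled libraries, a difference of 0.68 ± 0.17 (edgeR adjusted p = 0.909). There 0% of genes were called, 883 of 18080 with an unadjusted p under 0.05 and 30 by DESeq2.

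In mesenchyme with Shox2 Nrg1 was at 155 and 146 CPM in control and 400.5 and 277 CPM in mutant-labelled libraries. The difference was 1.12 ± 0.17 (unadjusted p 5.60e-05, edgeR adjusted p 0.171; DESeq2 adjusted p 2.29e-05). It was 1.09 ± 0.26 in cells with Itgbl1, Crym or Cldn11, 0.72 ± 0.24 with Foxl2 or Agtr2, 0.70 ± 0.16 with Osr1 and 0.59 ± 0.16 with Pax9 or Osr2, with edgeR adjusted p-values of 0.45, 0.653, 0.271 and 0.579. Without 1 library the difference ran over 0.81 to 1.36 for Shox2, 0.20 to 1.10 for Foxl2 or Agtr2, 0.41 to 0.93 for Osr1 and 0.33 to 0.80 for Pax9 or Osr2, lowest without mutant 1 and highest without mutant 2 in these 4, and over 0.71 to 1.72 for Itgbl1, Crym or Cldn11, lowest without control 2 and highest without control 1. With a library left out a group holds a single library, so only the sizes of these differences are given. In each of these 5 subsets both mutant-labelled libraries lay above both controls. How many of all genes separate in this way was not counted, so this order carries no test. In cells with Pou3f4 the groups overlapped, at 112 and 108 CPM in control and 162 and 92.2 CPM in mutant-labelled libraries, and the difference was 0.21 ± 0.24 (edgeR adjusted p = 0.998). The subsets share cells, so these are not separate observations, and whether the differences differ between subsets was not tested. Among all genes the called share was 0% for the Shox2, Foxl2 or Agtr2, Pax9 or Osr2 and Pou3f4 subsets, 0.00745% for Osr1 and 0.0173% for Itgbl1, Crym or Cldn11. In the Shox2 subset 778 of 12986 genes had an unadjusted p under 0.05. DESeq2 called 5, 7, 16 and 0 genes in the Shox2, Foxl2 or Agtr2, Pax9 or Osr2 and Pou3f4 subsets. It called 51 for Osr1 and 26 for Itgbl1, Crym or Cldn11. Egfr in cells with Pou3f4 was at 21.8 and 21.9 CPM in control and 41 and 39.2 CPM in mutant-labelled libraries, without overlap, and this difference of 0.83 ± 0.27 did not pass (edgeR adjusted p = 0.861). Erbb4 fell short of the threshold with Foxl2 or Agtr2 (-0.75 ± 0.19) and with Itgbl1, Crym or Cldn11 (-0.97 ± 0.28), with edgeR adjusted p-values of 0.605 and 0.568. Without 1 library the latter ran over -1.54 to -0.56.

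In glia, which express Sox10, Erbb3 was the single member with enough counts to test. Its difference was 0.07 ± 0.29 (edgeR adjusted p = 0.997), on 69 and 39 control UMIs against 83 and 21 mutant-labelled ones. No gene of 5362 was called by edgeR (0%) and 0 by DESeq2, with 246 at an unadjusted p under 0.05. A difference in Erbb3 within a few of these standard errors was not detectable at this depth. Compared with the difference in mesenchyme, where Erbb3 is near 0, that of glia was -0.40 ± 0.62 (edgeR adjusted p = 1).

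In epithelium Erbb3 was at 55.4 and 54.6 CPM in control and 56 and 53.9 CPM in mutant-labelled libraries, with overlap. The share of epithelial cells with an Erbb3 UMI was 53.3 and 44.4% in control and 41 and 36.3% in mutant-labelled libraries, at median depths of 12007, 8839.5, 12120.0 and 7628 UMIs. Thinned to 2000 UMIs a cell, the shares were 12.9 and 16% against 8.31 and 8.91%. Both shares were lower in the mutant-labelled libraries without overlap while the CPM overlapped, so no order is read from them. Egfr differed by -0.13 ± 0.12 and Erbb2 by -0.28 ± 0.16 (edgeR adjusted p = 0.909 and 0.868). Epithelial Nrg1 was at 39.8 and 44.9 CPM in control and 41.8 and 26.8 CPM in mutant-labelled libraries, a difference of -0.29 ± 0.23 (edgeR adjusted p = 0.898). The Nrg1 difference in epithelium minus that in mesenchyme was -0.97 ± 0.33, with an unadjusted p of 0.00932 and an edgeR adjusted p of 1, so a difference between the classes was not shown. Of all genes 0% of 12694 were called by edgeR in each of the 3 such comparisons, 521 for glia, 664 for neurons and 412 for epithelium had an unadjusted p under 0.05, and DESeq2 called 0. Without 1 library the Nrg1 difference in epithelium minus that in mesenchyme ran over -1.25 to -0.80. Of the 7 members 0 were called in epithelium, where edgeR called 0% of 13089 genes, 667 had an unadjusted p under 0.05 and DESeq2 called 11.

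In neurons Nrg1 differed by 0.93 ± 0.51, Egfr by 1.12 ± 0.66 and Nrg3 by -3.67 ± 1.49 (edgeR adjusted p = 1, 1 and 1). Without 1 library these ran over 0.43 to 2.39 for Nrg1 and 0.76 to 6.78 for Egfr, lowest without control 2 and highest without control 1, and over -9.48 to -0.51 for Nrg3, from without mutant 2 to without control 2. The epithelium marker list in the neuron gate was at 254 CPM in control 2 against 1583 to 1849 CPM in the other libraries, and its part in these values was not tested. The Nrg1 difference in neurons minus that in mesenchyme was 0.11 ± 0.36 (edgeR adjusted p = 1). Of the 3 members tested 0 passed. No gene was called by edgeR (0%) or DESeq2, and 159 of 5974 had an unadjusted p under 0.05.

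Added after the levels had been seen, the same test in mural cells, the contractile cells of vessel walls, called Erbb4. It was at 77.1 and 75.3 CPM in control and 4.22 and 7.79 CPM in mutant-labelled libraries, a difference of -3.63 ± 0.42 (edgeR adjusted p = 0.00478), where 0.278% of 7195 genes were called. The call rests on few cells. In the controls 8 of 75 and 5 of 44 mural cells held an Erbb4 UMI, and 1 cell held 47.5 and 58.3% of the UMIs. In the mutant-labelled libraries it was 2 of 39 and 2 of 56 cells. Without the cell richest in Erbb4 the levels were 41.6 and 32 against 2.14 and 1.99 CPM. With a gate of 2 markers the difference was -1.00 and did not pass, and without control 2 its adjusted p was 0.0546. The mural gate did not require more mural than mesenchyme markers. Its cells carried the mesenchyme list at 5453 and 5130 CPM in control and 5003 and 4912 CPM in mutant-labelled libraries. Their own mural list was lower, at 3136 and 2576 against 3260 and 3715 CPM. The cartilage marker list, of a class rich in Erbb4, was at 31.6 and 39.7 CPM in control and 29.5 and 33.1 CPM in mutant-labelled mural cells, and the muscle list at 78.4 and 37.6 against 14.8 and 40.9 CPM. The glia list was higher in the controls, at 79.6 and 163 against 16.9 and 74.0 CPM, while gated glia held 3 Erbb4 UMIs and none in the controls. The part of these lists in the result was not tested. Egfr in mural cells was at 111 and 115 CPM in control and 148 and 179 CPM in mutant-labelled libraries and differed by 0.51 ± 0.22, which did not pass (edgeR adjusted p = 0.513). Erbb2 there was at 6.32 and 4.18 CPM in control and 19 and 29.2 CPM in mutant-labelled libraries, on too few UMIs to be tested. Its groups did not overlap, an order that was not counted over all genes.

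In cartilage Nrg1 was at 24 and 11.1 CPM in control and 56.1 and 39.8 CPM in mutant-labelled libraries, 1.28 ± 0.34 on the log2 scale, and Nrg3 differed by 1.31 ± 0.30. Neither passed (edgeR adjusted p = 0.884 and 0.688). For both genes the groups did not overlap, but how many of all genes separate in this way was not counted. Without 1 library the differences ran over 0.93 to 2.05 for Nrg1 and 0.97 to 1.62 for Nrg3. Erbb4 differed by -1.08 ± 0.46 (edgeR adjusted p = 0.999), which became 0.053 without control 2. With a gate of 2 markers the Nrg3 difference in cartilage was 0.40. In bone Egfr was at 20.6 and 24.7 CPM in control and 44.8 and 35.1 CPM in mutant-labelled libraries, 0.80 ± 0.24 (edgeR adjusted p = 0.997), and the difference was 0.16 with a gate of 2 markers. The called share was 0% of 10074 genes in cartilage and 0% of 10766 in bone, with 446 and 423 at an unadjusted p under 0.05 and 0 by DESeq2 in both. In endothelium and macrophages, where 0.0584% and 0.0147% of genes were called, no member had enough counts to be tested.

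**Figure D5:**
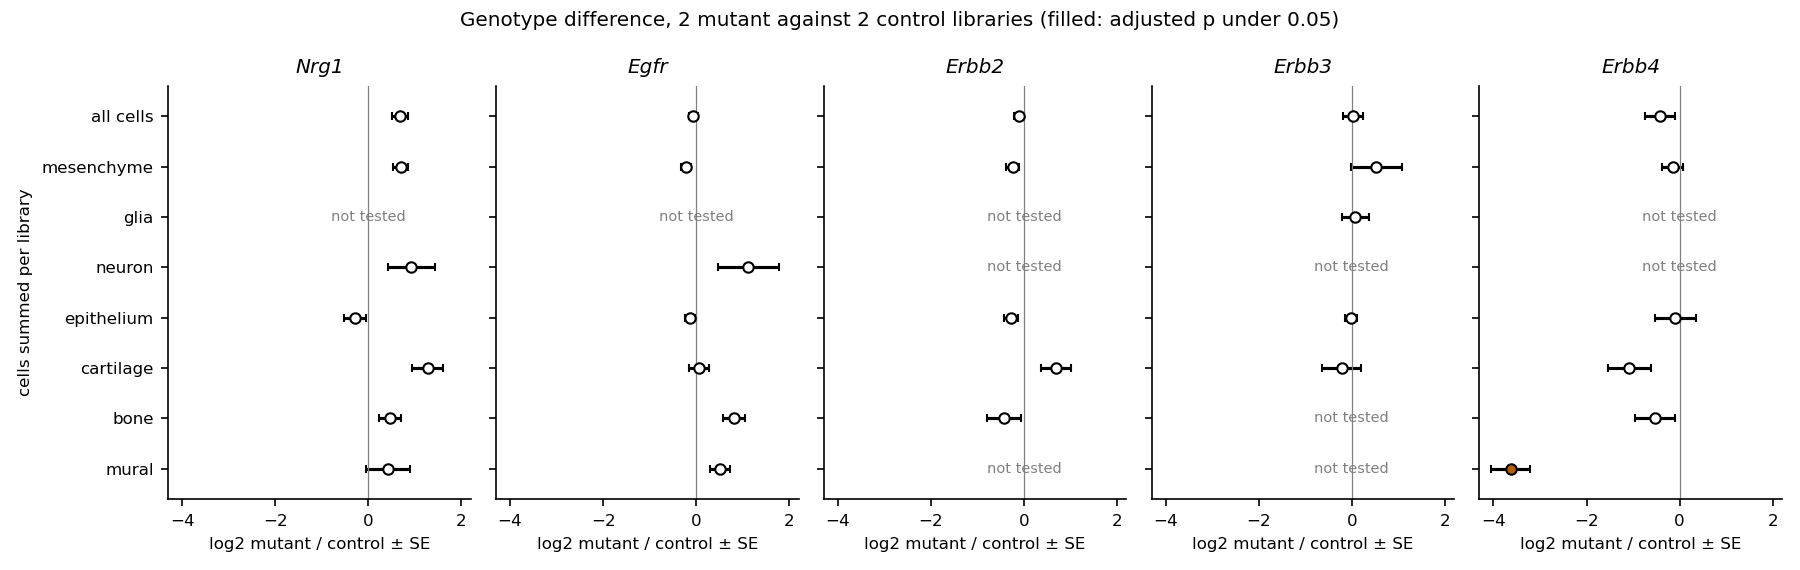
Fitted log2 difference between 2 mutant-labelled and 2 control libraries with its standard error (horizontal axes) for 5 genes in all cells and in 7 classes (vertical axis). The single filled point, Erbb4 in mural cells at -3.63, passes the adjusted threshold of 0.05. Nrg1 is above 0 in all cells, mesenchyme, neurons, cartilage, bone and mural cells, below 0 in epithelium and not tested in glia. None of these Nrg1 differences passes.

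Genes that act around the receptors were taken from 5 lists of 63 genes in all. In glia against the other 3 main classes, where 24.4% of all genes passed and the median log2 difference was -0.04, 4 of 5 tested proteases and helpers that shed ligands were higher and 0 lower, with a median of 1.00. Among them were Adam10 (1.00 ± 0.16), a protease that cleaves membrane ligands, and Rhbdf1 (1.93 ± 0.37), which assists the protease Adam17, with edgeR adjusted p-values of 1.23e-04 and 6.08e-04. Of 24 adaptors and kinases 5 were higher and 4 lower, with a median of -0.02. Gab1 (2.01 ± 0.15), the docking protein of these receptors, and the ERK kinase gene Mapk3 (1.02 ± 0.17) were higher (edgeR adjusted p = 4.63e-09 and 1.59e-04).

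Of 13 inhibitors tested 3 were higher and 3 lower, with a median of -0.03. Dusp6, an ERK phosphatase, was higher (1.48 ± 0.24) and Cblb, a ubiquitin ligase that removes receptors, lower (-1.20 ± 0.19), with edgeR adjusted p-values of 1.21e-04 and 8.87e-05. Among 4 other ErbB ligands tested of 8, 1 was higher: Hbegf (2.31 ± 0.36, edgeR adjusted p = 7.34e-05), whose product binds EGFR and ErbB4, both of which glia nearly lacked. Btc did not pass (edgeR adjusted p = 0.0934). Of 10 response genes 1 was higher and 2 lower, with a median of -0.44: the cyclin gene Ccnd1 rose (1.07 ± 0.25) and the immediate early gene Egr1 fell (-1.77 ± 0.26), with edgeR adjusted p-values of 0.00378 and 3.56e-05. Between genotypes edgeR called 0 of the 63 genes in all cells, mesenchyme, glia, neurons or epithelium, of which 63, 59, 38, 39 and 59 were tested and 4, 8, 4, 3 and 7 had an unadjusted p under 0.05. DESeq2 called 0, 0, 0, 0 and 0 of them in the same order.

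Genes whose log2(CPM + 1) most resembled each member over the 16 sums of 4 classes and 4 libraries, by Pearson correlation among genes with a mean of at least 20 CPM, were as follows. For Erbb3 they were Agrn (0.98), Ppp1r14c (0.95), Atp10b (0.95). For Nrg1 they were Ly6h (0.95), Kcnb2 (0.94), Rgs6 (0.94). Erbb2 was closest to Ssbp1 (0.97), Tcp1 (0.95), Siva1 (0.94), and Egfr to Meis2 (0.96), Tspan5 (0.94), Ifitm1 (0.94). For Erbb4 they were Efna4 (0.90), Cntn5 (0.89), Zfp503 (0.88), for Nrg3 Rab11b (0.88), Unc5c (0.88), Birc2 (0.85) and for Nrg2 Ankle2 (0.87), Keap1 (0.84), Erp44 (0.83). The 16 sums share libraries and differ in depth, and the classes dominate these values, so they describe a pattern over classes.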

How the data were processed

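The deposited values are whole-number UMI counts per gene and cell barcode from 10x Genomics 3-prime v3.1 libraries, 4 in all. The submitters' processing notes name Cell Ranger 4, Seurat 4.3.0 and mm10, whereas the headers of the deposited count matrices name Cell Ranger 8.0.1, and this was not settled. Strand and intron counting are not given in the sources used here. Doublets were kept, and an alternative removed the barcodes with the highest Scrublet scores, 0.8% per 1000 barcodes.

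For each library the counts of the cells of a class were added up, and these sums entered edgeR 4.0.16 in R 4.3.3 (quasi-likelihood test, TMM scaling, filterByExpr, Benjamini-Hochberg adjustment over all genes tested, threshold 0.05). Genotypes were compared with genotype as the one term. Classes and subsets were compared with library as a block, and class by genotype terms tested whether differences differ. The standard error is the log2 difference divided by the root of its F. DESeq2 1.42.0, RLE size factors, no filter, gates of 2 and 4 markers and leaving out each library were alternatives. The genotype and class fits were tested on simulated data. Subsets were tested with at least 20 cells in every library.

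The limit on mesenchyme markers in the gate was added after the data were seen, because the gate as first written gave a neuron class made up mostly of cells rich in mesenchyme markers; the first gate is an alternative. Comparisons in mural cells, cartilage and bone, between genotypes within mesenchyme subsets and between pairs of classes were also added after the levels had been seen. All 7 members are named. Of the pathway lists, the 2 genes per list with the smallest p in the glia comparison are named, and for each member the 3 most similar genes. The members and lists were chosen with earlier results of these data known. Intervals on shares are exact binomial 95% intervals. Plots were made with matplotlib 3.10.9.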

Additional observations from a re-analysis of the deposited data

How the results depend on the processing

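Each arm has 2 libraries, and leaving 1 out assumes that the lone library varies like the other group. Over the alternatives, 724 single-gene or share values kept direction and side of the threshold, 34 lost a call, 45 gained one and 13 reversed. For 1 more, Erbb4 in mural cells without its richest cell in each library, the log2 ratio of mean CPM was -4.16. Of the counts of members, 261 stayed within 1.5 times of the main count and 51 did not. The causes were not tested. With the gate as first written, the genotype difference reversed for Egfr in neurons (-0.036), as did Nrg1 in mesenchyme minus neurons (0.23) and the Nrg1 difference in neurons minus that in mesenchyme (-0.10). A gate of 4 markers gave 0.22 for the Erbb3 difference in glia minus that in mesenchyme, and a gate of 2 markers gave 0.11 for Erbb4 between genotypes in mesenchyme with Itgbl1, Crym or Cldn11. The share of epithelial cells with an Egfr UMI differed by -2.77 percentage points, and by 0.23 at 2000 UMIs a cell.

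Leaving out 1 library reversed some differences, which ranged over -0.37 to 0.30 for Erbb3 in glia (reversed without mutant 1), -0.22 to 0.0035 for Egfr in epithelium (without control 1), -1.78 to 0.053 for Erbb4 in cartilage (without control 2), -0.34 to 0.53 for Nrg1 in mesenchyme with Pou3f4 (without mutant 1), -0.016 to 0.40 for Erbb2 in mesenchyme minus glia (without control 1), -1.44 to 0.52 for the Erbb3 difference in glia minus that in mesenchyme (without mutant 2) and -0.19 to 1.67 for that of Nrg1 in neurons (without control 2).

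Between genotypes, members called went from 0 to 1 in mesenchyme with DESeq2, without the filter and with the replicate block, from 0 to 1 in neurons and from 0 to 3 in cartilage without the filter, and from 1 to 0 in mural cells with a gate of 2 markers or of 4 markers. Of all genes, 56 were called in mesenchyme with DESeq2, 605 without the filter and 129 with the replicate block. Without the filter 93 were called in neurons and 68 in cartilage. For the class by genotype term of neurons it was 1 without the filter, where 77 of all genes were called. In mesenchyme subsets, DESeq2 called 1 member for Osr1 and 1 for Shox2, in place of 0, where it called 51 and 5 of all genes. The unfiltered fit called 1 for Osr1, 2 for Foxl2 or Agtr2, 1 for Shox2, 1 for Pax9 or Osr2 and 3 for Itgbl1, Crym or Cldn11, in place of 0. It called 507, 244, 172, 334 and 272 of all genes in the same order. The replicate block called 1 for Shox2 and 2 for Itgbl1, Crym or Cldn11, in place of 0, with 21 and 104 of all genes. Against the rest of their class, DESeq2 called 3 members of 5 for basal keratinocytes, 3 of 5 for Osr1, 1 of 2 for Foxl2 or Agtr2 and 2 of 4 for Shox2; the gate of 2 markers gave 1 of 2 for Pou3f4 and 2 of 4 for Shox2; and the unfiltered fit gave 4 in place of 2 for Itgbl1, Crym or Cldn11. With 1 library left out, the counts were 2 to 3 in place of 4 for neurons against the other 3 classes. Against the rest of their class they were 3 to 5 for basal keratinocytes, 3 to 5 for Osr1, 1 to 2 for Foxl2 or Agtr2, 2 to 4 for Shox2 and 2 to 4 for Itgbl1, Crym or Cldn11. Counts between genotypes are not given for those fits, because a group then holds a single library.

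Same-numbered libraries did not deviate together (correlation across genes -0.05 to 0.09 over 5 sets of cells), so the numbers do not pair libraries. With the replicate block the edgeR adjusted p of Nrg1 in mesenchyme was 0.0150, in its Shox2 subset 0.00412 and in its subset with Itgbl1, Crym or Cldn11 0.0119, and the genes called in mesenchyme went from 0 to 129. Depth limits the small classes, with 119 glia, 100 neurons and 62 muscle cells in all. A mural gate of 4 markers left too few Erbb4 counts to test.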
